A study of Mus musculus with 61 samples.

Results

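Microglia of WT mice held 23427 distal windows of open chromatin that were listed for WT cells and not for cells lacking the microglial Sall1 enhancer, out of 133129 windows in the deposited table. A window entered this set when the table's origin field named the WT peak list alone and its centre lay more than 3000 bp from the nearest annotated transcription start site (TSS). The members made up 25.2% of the 92940 distal windows. Another 60468 distal windows were named in both lists and 9045 in the EKO list alone, while 5567 windows of the WT list alone lay near a TSS and were left out. The origin names hold the word SALL1 beside WT or EKO and do not state the assay. They were read as the ATAC-seq (open chromatin) lists of the 2 genotypes, because the study describes such lists for this table and because they hold far more regions than the 15410 SALL1 peaks. The members were thus selected on being listed for WT cells and not for EKO cells. Accessibility itself was not compared between the genotypes, and absence from the EKO list does not mean closed chromatin. Every difference between those genotypes at the members below is a description.

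The series holds 61 mouse brain samples, and the counts at the members come from 4 H3K27ac ChIP-seq libraries of sorted microglia, 2 WT and 2 EKO. EKO mice carry a homozygous CRISPR deletion of the Sall1 super-enhancer in every cell, and both genotypes are labelled C57/Bl6. According to the study's methods the mice were young adult males, and the cells were sorted as CD11b+CD45lowCX3CR1+. Peak lists of SALL1 (2 libraries each of WT, EKO and the wild-derived strains PWK and SPRET), of SMAD4 (2 WT libraries and 2 labelled mutant) and of p300 (3 WT libraries), and lists of H3K27ac regions called in PU1, NeuN and Olig2 nuclei (2 libraries per genotype), were set against the same windows. The mutant SMAD4 libraries are named a conditional SMAD4 deletion in their titles and EKO in their descriptions, and p300 was measured in microglia in library 1 and in PU1 nuclei in the others. No label says that libraries of 1 group came from separate animals, so p-values measure only the spread between these libraries.

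SALL1 is a zinc finger transcription factor that marks microglia among brain macrophages, and it is required for their homeostatic program. Distal enhancers open when pioneer and lineage factors such as PU.1 bind, and active enhancers carry H3K27ac, which is deposited by the acetyltransferases p300 and CBP. SMAD4 is the common partner of the receptor-activated SMAD proteins and carries the TGF-beta signal that microglia depend on. Nuclei of the neuronal and oligodendrocyte lineages, sorted by NeuN and Olig2, use other sets of enhancers.

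The sequences of the members with the largest losses of H3K27ac are shown first, since these elements are described one by one below. With them are those of the highest WT signal among members with SALL1, SMAD4 and p300 peaks. Each sequence is the central 200 bp of the 1 kb window, on the plus strand of RefSeq GRCm38, the mm10 build of the table. Peaks were matched anywhere in the 1 kb window, so a peak need not lie in the printed part. Capitals mark every match, on either strand, to a set of 12 short words: GAGGAAGT (PU.1), GAAANNGAA (IRF), CTATTTATA (MEF2), AATATT (an AT-rich word of SALL proteins), CAGACA and GTCTAGAC (SMAD), AACCACA (RUNX), TTGCNNAA (C/EBP), TGANTCA (AP-1), AAAGGTCA (NR4A), TCACGTG (MITF/TFE) and GGNGGCAG (CTCF). Words may overlap one another, and a match describes the letters only. The first 4 are the members of the largest log2 loss, 1 per nearest gene.
Sall1, chr8:89396746-89396945: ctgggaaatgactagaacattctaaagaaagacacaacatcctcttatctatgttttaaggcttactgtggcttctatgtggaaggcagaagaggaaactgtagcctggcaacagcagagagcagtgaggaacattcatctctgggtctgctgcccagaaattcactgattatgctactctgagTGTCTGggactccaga
Khdrbs3, chr15:69078773-69078972: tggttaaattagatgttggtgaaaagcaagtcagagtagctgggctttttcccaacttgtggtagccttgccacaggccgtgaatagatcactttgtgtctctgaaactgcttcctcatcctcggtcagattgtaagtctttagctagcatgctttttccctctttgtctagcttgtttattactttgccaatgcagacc
Mlph, chr1:90918349-90918548: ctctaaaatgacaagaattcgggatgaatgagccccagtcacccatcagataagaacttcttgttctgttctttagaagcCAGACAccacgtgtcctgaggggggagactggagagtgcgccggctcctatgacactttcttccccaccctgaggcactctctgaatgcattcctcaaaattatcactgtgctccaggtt
Cdk5rap3, chr11:96906651-96906850: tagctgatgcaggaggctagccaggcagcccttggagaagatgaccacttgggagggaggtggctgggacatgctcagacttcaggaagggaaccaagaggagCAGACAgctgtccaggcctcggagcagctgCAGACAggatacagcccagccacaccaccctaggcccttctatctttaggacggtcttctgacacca
The next 3 are the members with SALL1, SMAD4 and p300 peaks that had the highest mean WT H3K27ac, again 1 per nearest gene.
Itgae, chr11:73085115-73085314: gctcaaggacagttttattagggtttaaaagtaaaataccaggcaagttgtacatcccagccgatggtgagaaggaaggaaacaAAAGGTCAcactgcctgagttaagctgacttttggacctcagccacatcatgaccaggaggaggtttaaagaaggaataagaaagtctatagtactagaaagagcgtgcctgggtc
Dtnbp1, chr13:45109481-45109680: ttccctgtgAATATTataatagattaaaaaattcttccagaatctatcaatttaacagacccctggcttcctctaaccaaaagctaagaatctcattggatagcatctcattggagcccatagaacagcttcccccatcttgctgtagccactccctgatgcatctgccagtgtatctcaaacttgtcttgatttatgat
Lhfpl2, chr13:94093940-94094139: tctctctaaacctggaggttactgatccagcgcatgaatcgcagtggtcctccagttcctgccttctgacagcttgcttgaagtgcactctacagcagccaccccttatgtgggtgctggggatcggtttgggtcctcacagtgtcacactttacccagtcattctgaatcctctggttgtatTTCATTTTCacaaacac
Among these 7 elements, CAGACA occurs in the Sall1, Mlph and Cdk5rap3 windows, AATATT in the Dtnbp1 window, AAAGGTCA in the Itgae window and the IRF word in the Lhfpl2 window. None of the 12 words occurs in the central part of the Khdrbs3 window.

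H3K27ac at most members was low in every library. Values are tags in the 1 kb window, scaled to 10000000 tags per library. Over all 23427 members the median was 5.75 and 4.98 tags in WT libraries 1 and 2, and 9.03 and 3.73 tags in EKO libraries 1 and 2. The EKO libraries thus lay on both sides of the WT libraries, and the genotypes overlapped. A level above 16 tags, the cutoff the study used for active enhancers, was reached by 17.8% and 15.1% of members in WT and by 27.1% and 8.27% in EKO. Between 3.73% and 9.87% of members had no tag at all in a given library. Distal windows of both lists had medians of 9.03 and 7.96 tags in WT and 18.07 and 7.47 tags in EKO, and those of the EKO list alone 4.93 and 3.98 tags in WT and 16.06 and 6.72 tags in EKO.

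**Figure D1:**
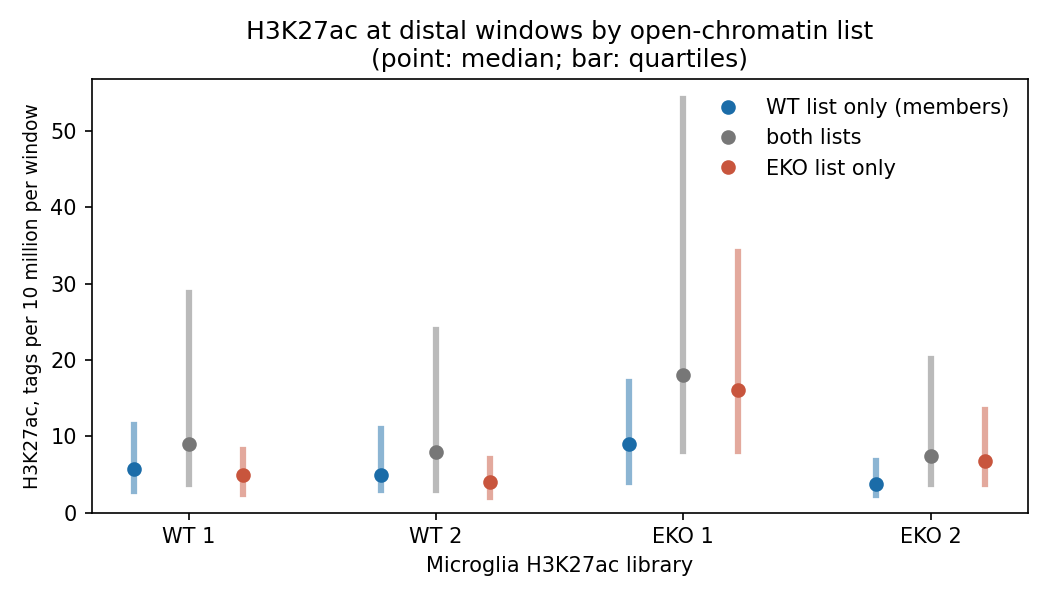
H3K27ac per 1 kb window (y axis, scaled tags) in the 4 microglia libraries (x axis) for distal windows named in the WT list alone, both lists or the EKO list alone, with points at the median and bars from the lower to the upper quartile. Members had medians from 3.73 to 9.03 tags, and EKO library 1 stood above the other libraries in all 3 sets.

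EKO library 1 stood apart from the other libraries. The depths recovered from the tag steps were 24357800, 10047700, 9963450 and 13392900 tags for WT 1, WT 2, EKO 1 and EKO 2, and the windows of the table held tags equal to 54.9%, 39.4%, 97.2% and 33.2% of those depths, with tags in overlapping windows counted more than once. Log2 values were therefore quantile-normalized across the libraries before the test, and the result on the values as deposited is given beside it. The H3K27ac near start sites matched the labelled cell type: summed over the microglia markers the signal was 2759, 1853, 3969 and 1195 tags, with 7 of 8 genes above 16 tags in every library. Neuron markers summed to between 2.99 and 25.1 tags, oligodendrocyte markers to between 32.9 and 102 tags, and astrocyte markers to 146 and 140 tags in WT against 36.1 and 10.5 tags in EKO. Only 2 of the 4 astrocyte genes had a window near the start site. Of these, 1 passed 16 tags in each WT library and in EKO library 1, and 0 in EKO library 2. Border macrophage markers summed to 75.9 and 68.7 tags in WT and to 688 and 270 tags in EKO, and the part of a changed cell mixture in the values below was not tested. In bulk samples, fewer cells of a type and less H3K27ac per cell cannot be told apart.

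Where H3K27ac was high enough to be tested, losses at the members outnumbered gains. Of the members, 3712 had a mean above 16 tags over the 4 libraries. Of these, 870 were called losing in EKO (23.4%) and 108 gaining (2.91%), with limma on quantile-normalized log2 values, an adjusted p under 0.05 over all 55285 tested windows and a change of more than 2-fold. Across all tested windows the same rule called 7.56% losing and 8.68% gaining. The median log2 change was -0.47 at the tested members and -0.03 over all tested windows. At the values as deposited, where the median over all tested windows moved to 0.28, 34 members were called losing and 6 gaining, against 0.128% and 0.814% of all tested windows, and the median at the members was -0.09. Since the members were selected on the same genotypes, nothing is read from these shares. The remaining 19715 members fell under the filter and have no call. Leaving out WT library 1 or EKO library 1 left 0 members called in either direction by limma, with 738 and 1201 members lower and 167 and 172 higher at an unadjusted p under 0.05. Leaving out WT library 2 left 74 losing and EKO library 2 left 441, while edgeR on whole tags called between 585 and 786 losing whichever library was left out.

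Counted without a model, both WT libraries lay above both EKO libraries at 742 of the 3712 tested members (19.99%), against 6.12% of all tested windows. Both EKO libraries lay above both WT libraries at 362 members (9.75%), against 17.8% of all tested windows. Over all members of any level the numbers were 3692 (15.8%) and 3754 (16.02%), against 8.83% and 21.3% of all windows of any level. In the distal windows of both lists the call rule gave 9.92% losing and 10.2% gaining, and in those of the EKO list alone 1.48% and 41.8%.

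**Figure D2:**
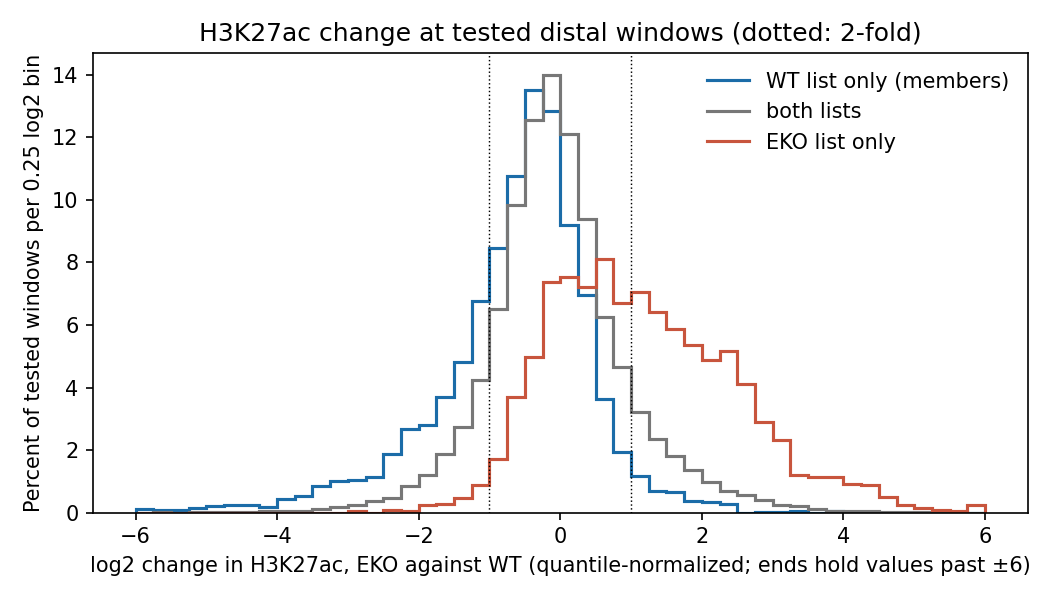
Distribution of the log2 change in H3K27ac, EKO against WT (x axis, quantile-normalized), over tested distal windows (y axis, percent of windows per 0.25 log2 bin) for windows of the WT list alone, both lists and the EKO list alone; dotted lines mark 2-fold. The 3 distributions have medians of -0.47, -0.10 and 1.02 and overlap broadly.

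The largest losses lay upstream of Sall1 itself. All 58 distal windows whose nearest gene was Sall1 were members. Among the 950 genes with at least 20 distal windows it was the only gene at 100%, where the median gene had 22.7%. Their summed H3K27ac was 2850 and 1820 tags in the WT libraries, with a mean of 2335 ± 728 (SD, n = 2). In the EKO libraries it was 282 and 145 tags, with a mean of 213 ± 97.0 (SD, n = 2). At 45 of the 58 windows both WT libraries lay above both EKO libraries, against 8.83% of all windows of any level. At none was the order the opposite, against 21.3%. Over all tested windows 7.56% were called losing, and 0.128% at the values as deposited. Of the 22 tested windows nearest to Sall1, 22 were called losing, 11 of them also at the values as deposited. The log2 changes of these 22 ran from -8.48 to -2.81, with a median of -4.35. EKO levels over the 58 windows reached at most 19.07 tags in library 1 and 7.47 in library 2. A window here could thus pass the filter, a mean above 16 tags, only through its WT level. Nothing is read from the 22 of 22. Another 28 had a mean WT level under 16 tags.

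The leading element, 352683 bp upstream of the TSS (chr8:89396345-89397345), had 524.68 and 297.58 tags in WT and 1.00 and 0.00 in EKO. It held 1577 whole tags in the WT libraries and 1 in the EKO libraries, a depth-scaled ratio of 1071 (95% interval 192 to 42311, exact, counting error only). Its neighbour 348720 bp upstream had 358.41 and 196.06 tags in WT and 1.00 and 3.73 in EKO. The window 360.31 kb upstream had 108.38 and 79.62 tags in WT and none in either EKO library. These 3 windows carried SALL1, SMAD4 and p300 peaks in WT microglia, as did the window 138.42 kb upstream, with 133.84 and 76.63 tags in WT and 14.05 and 0.75 in EKO. Losses were not limited to the far upstream cluster: in intron 2 of Sall1, 3088 bp downstream of the TSS, the window had 183.92 and 117.44 tags in WT and 3.01 and 2.99 in EKO. In every one of these windows the WT and EKO values did not overlap. The deleted enhancer lies upstream of Sall1, and deleted DNA gives no tags, so at windows inside the deletion loss of DNA and loss of the mark cannot be told apart. The ends of the deletion were not located here.

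**Figure D3:**
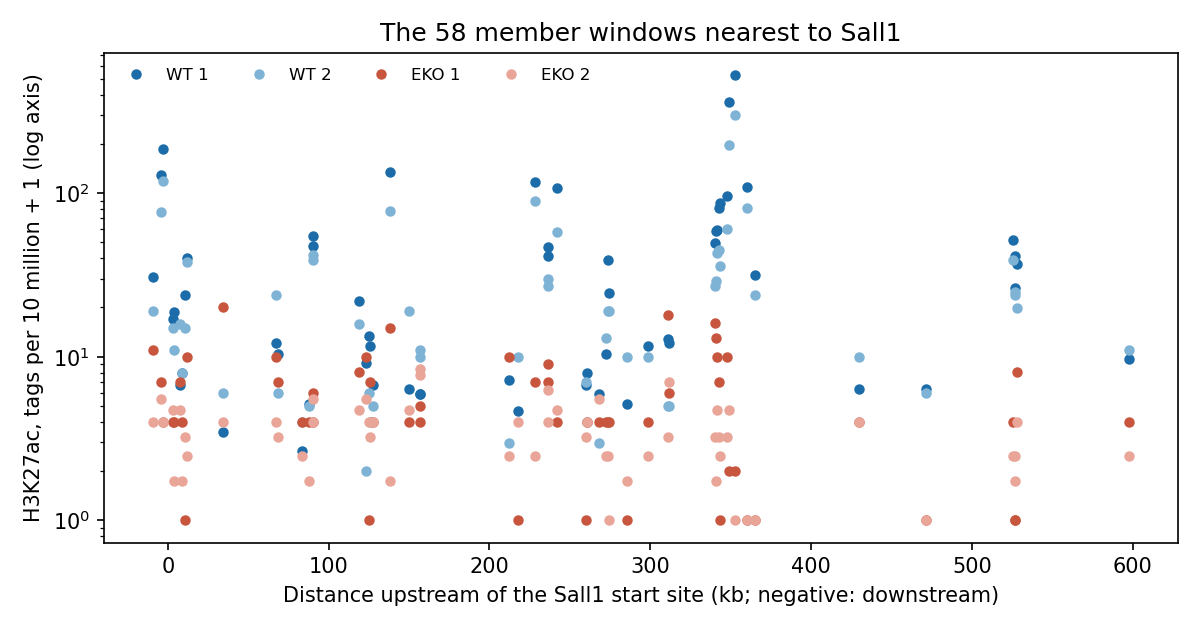
H3K27ac of the 58 member windows nearest to Sall1 (y axis, scaled tags plus 1, log axis) against the distance upstream of its start site (x axis, kb, negative values downstream) in the 4 libraries, with each point 1 window in 1 library. WT points rise to 524.68 tags near 353 kb upstream, while EKO points reach at most 19.07 tags.

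Members nearest to Sall1 belonged to the run with the most windows of the WT list alone. Read along the chromosomes, consecutive windows of the WT list alone formed 19660 runs, of which 14166 held a single window and 41 held at least 10. The run around Sall1 held 86 windows, 77 of them members, over 974 kb (chr8:88783426-89757544). All of its 30 tested members were called losing and none gaining, against 7.56% and 8.68% of all tested windows. Those nearest to Sall1 passed the filter only through their WT level, so nothing is read from this count. The nearest window of another list lay 144 kb from a member nearest to Sall1. The next runs held 23 windows over 115 kb nearest to Khdrbs3, 22 windows that begin within Khdrbs3 and are mostly nearest to Gm19782, and 21 windows nearest to Csmd3, which spanned 1034 kb, more than the Sall1 run. No window of the Khdrbs3 run was high enough to be tested, while 2 members were tested in each of the other two and were called losing.

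H3K27ac regions called in sorted nuclei gave a readout that did not enter the choice of members. Of the 58 members nearest to Sall1, 48.3% and 89.7% lay in regions of the 2 WT PU1 libraries, which sample microglial nuclei, and 0 of 58 in either EKO PU1 library. If the 58 windows were independent, a count of 0 would allow a share of up to 5.17% (3 of 58). These windows lie along the same locus and neighbouring windows can share a region, so they are not independent. The limit therefore says nothing about the spread between libraries, and nothing is read from it. In Olig2 nuclei, of the oligodendrocyte lineage, the shares were 8.62% and 8.62% in WT and 12.1% and 10.3% in EKO, and in neuronal NeuN nuclei 19.0% and 0% in WT and 19.0% and 1.72% in EKO. Over all windows the mean shares in WT and EKO were 33.7% and 43.0% for PU1, 26.4% and 26.9% for Olig2, and 30.6% and 32.1% for NeuN. With 2 libraries against 2, the smallest p that an exact permutation test allows is 0.333.

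Outside Sall1 the nearest genes of the deepest losses had varied roles. A window in intron 7 of Khdrbs3, which encodes an RNA-binding protein of the STAR family, had 243.45 and 150.28 tags in WT and 0.00 and 7.47 in EKO, a log2 change of -5.93 (SE 0.62). Khdrbs3 also had the second highest share of members among genes with at least 20 distal windows, 32 of 34. Its 32 members summed to 556 and 427 tags in WT and 183 and 110 tags in EKO, but only 2 were high enough to be tested and both were called losing. In intron 1 of Mlph, the melanophilin gene, whose product links melanosomes to the actin motor, 133.84 and 58.72 tags in WT stood against 0.00 and 2.24 in EKO. At the end of Cdk5rap3, 131.37 and 96.54 tags stood against 3.01 and 1.49. At 116860 bp upstream of AY512915, 88.27 and 46.78 tags stood against 4.01 and 0.00. In these windows every WT value lay above every EKO value, as the choice of these windows required. The Khdrbs3 window was not called by DESeq2 on whole tags (adjusted p = 0.136).

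The other windows of the 10 largest losses lay in or near Tppp (87.04 and 51.75 tags in WT against 6.02 and 0.75 in EKO), 1700025G04Rik, Arl15, Mir152 and Chsy1. Tppp encodes the tubulin polymerization promoting protein, known from oligodendrocytes, and its window lay in no PU1 region of either genotype but in Olig2 regions of all 4 libraries. The 1700025G04Rik window, 77561 bp upstream of the TSS, had 125.22 and 115.45 tags in WT and 4.01 and 2.99 in EKO. At Arl15, a small GTPase of the ARF family, 45.16 and 25.88 tags in WT stood against none in either EKO library, at least 30.8-fold lower with a floor of 3 tags over the EKO group, and limma on the values as deposited did not call it (adjusted p = 0.137). The Chsy1 window, 87236 bp from the TSS of this chondroitin synthase gene, had 175.30 and 111.47 tags in WT and 12.04 and 2.99 in EKO. SALL1 peaks lay at 5 of the 10 windows (Sall1, Khdrbs3, AY512915, 1700025G04Rik and Chsy1). Of the 10, 8 windows lay in regions of both WT PU1 libraries, and the Arl15 window in 1, while none lay in an EKO PU1 region. The Khdrbs3, Mlph, 1700025G04Rik, Arl15, Mir152 and Chsy1 windows lay 468 to 780 bp from another window, so each overlapped it and can share its tags.

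The members with the highest H3K27ac were chosen on WT level and not on a loss. The 8 highest by WT mean lay near Dleu2, Itgae, Tnfaip3, Nav3, Fhad1os1, Fance, Rn45s and Bicral. Each lay within 272 to 751 bp of a window of another list, so its 1 kb window overlapped that one and can share its tags. At Itgae, which encodes the integrin alpha E subunit, 871.59 and 491.65 tags in WT stood against 577.11 and 186.67 in EKO, a log2 change of -1.29 (SE 0.12) that was called losing. At Nav3, a neuron navigator gene, 802.21 and 449.85 tags stood against 672.46 and 198.61, with a log2 change of -1.01 (SE 0.12), also called. At both genes the WT and EKO ranges overlapped as deposited, and neither was called on those values. At Tnfaip3, the gene of the NF-kappaB inhibitor A20, 724.61 and 556.35 tags in WT and 1136.15 and 377.06 in EKO gave a log2 change of -0.27 (SE 0.10), which was not called. The Dleu2 window, at 927.42 and 467.77 against 1736.35 and 496.53 tags, and the Fhad1os1, Fance and Bicral windows were not called either. The Rn45s window lies in the repeated ribosomal RNA gene, where reads from many copies collapse, and its value is uncertain.

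Gains were called mostly beside windows of another list. The largest were nearest to 1190002N15Rik (1.64 and 7.96 tags in WT against 352.29 and 74.67 in EKO), Commd10 (3.69 and 1.00 against 141.52 and 52.27), Runx3 (4.11 and 2.99 against 180.66 and 58.99), Parp14 (0.00 and 3.98 against 57.21 and 34.35) and Gm7550 (20.53 and 14.93 against 442.62 and 154.56). The 1190002N15Rik and Commd10 windows were intergenic, 175123 and 195530 bp from the TSS. Runx3 encodes a Runt-family transcription factor used by many leukocytes. The Parp14 window was not called on the values as deposited (limma, adjusted p = 0.0565) or by DESeq2 (adjusted p = 0.233). All 5 lay 230 to 261 bp from a window of another list, so their 1 kb windows overlapped it and counted the same tags. Of the 108 gaining members 96 (88.9%) had such a window within 1000 bp, with a median distance of 395 bp. The share was 62.4% for the 870 losing members (median 721 bp), 72.2% for tested members without a call and 16.4% for members under the filter. Among the 15206 members with no window centre of any kind within 1000 bp, 740 were tested, with a median log2 change of -0.52. Of these, 164 were called losing (22.2%) and 9 gaining (1.22%), against 7.56% and 8.68% of all tested windows.

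SALL1 peaks of WT microglia overlapped 1520 members, or 6.49% (Wilson 95% interval 6.18% to 6.81%, for counting error only, since neighbouring windows can share a peak). SMAD4 peaks overlapped 394 members (1.68%) and p300 peaks 768 (3.28%). All 3 met at 152 members (0.649%), and 1985 members (8.47%) held a peak of at least 1 of the 3. Distal windows of both lists held SALL1, SMAD4 and p300 peaks at 20.47%, 5.997% and 11.3%, and those of the EKO list alone at 6.47%, 1.24% and 2.47%. Thus 6.49% of members and 6.47% of windows of the EKO list alone held a SALL1 peak. In the central 200 bp the SALL1 shares were 2.09% at members, 16.1% at windows of both lists and 2.41% at windows of the EKO list alone. Each list is a single list over its libraries, so these shares have no replicate error. The WT lists used here held 15410 SALL1, 4024 SMAD4 and 9177 p300 peaks, and binding outside these lists was not counted.

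In EKO microglia the SALL1 list held 7 peaks in all and 1 of them at a member. PWK and SPRET SALL1 peaks lay at 371 (1.58%) and 265 (1.13%) members, from lists of 3627 and 2245 peaks against 15410 in WT. The SMAD4 libraries labelled mutant gave 2333 peaks against 4024 in WT and overlapped 163 members (0.696%). Of the 1520 members with a SALL1 peak 27.1% also had a p300 peak, against 36.2% of the SALL1-bound distal windows of both lists.

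SALL1 peaks were more frequent at members of higher H3K27ac. The share with a SALL1 peak was 0.860% at members with under 4 tags of mean WT H3K27ac, 2.79% from 4 to 8, 8.502% from 8 to 16, 16.4% from 16 to 32, 26.97% from 32 to 64 and 40.5% at 64 or above. At each level the windows of both lists stood higher, from 2.92% to 54.3%. The windows of the EKO list alone stood at 1.47% under 4 tags, 2.77% from 4 to 8 and 10.7% from 8 to 16. From 16 tags up they stood at 29.9%, 40.1% and 45.3%. They were thus above the members at every level but 4 to 8 tags. Among windows with no neighbour within 1000 bp, 18.2% of the 44 members and 56.0% of the 1270 windows of both lists at 64 tags or above held a SALL1 peak. SMAD4 and p300 peaks lay at 22.8% and 30.1% of members at 64 tags or above, against 31.1% and 42.5% of the windows of both lists.

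**Figure D4:**
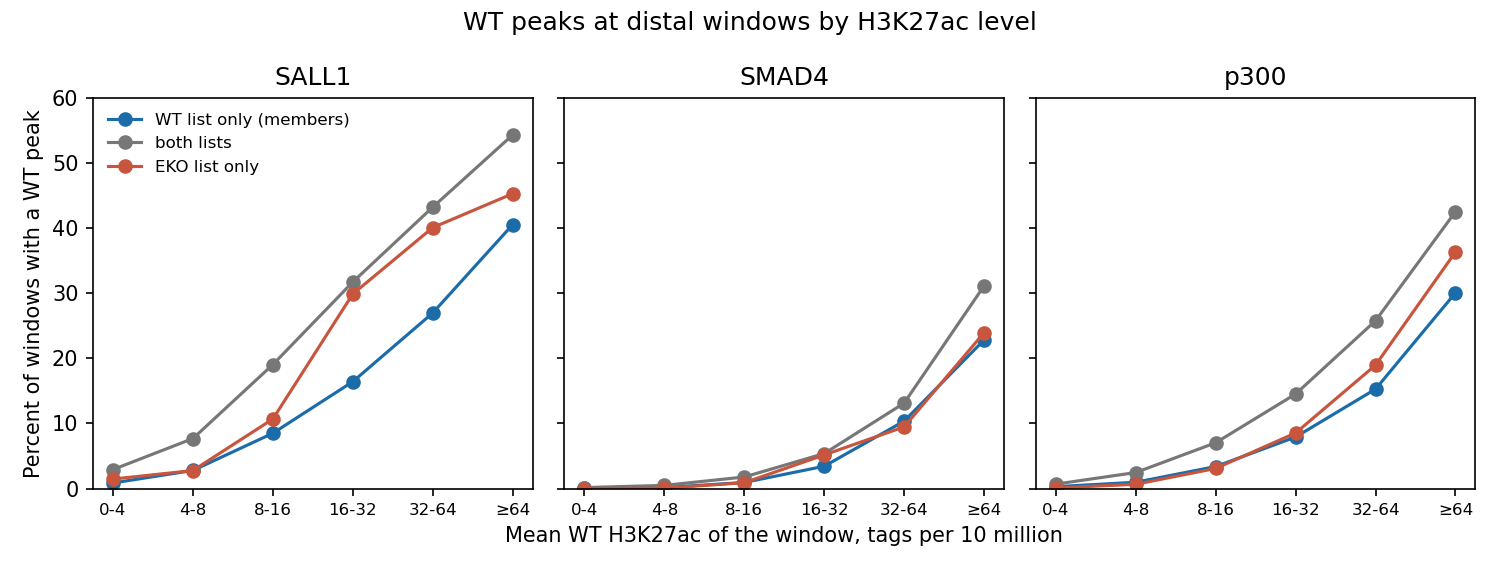
Percent of distal windows with a SALL1, SMAD4 or p300 peak in WT cells (y axis) by mean WT H3K27ac of the window (x axis, scaled tags), for windows of the WT list alone, both lists and the EKO list alone. For SALL1 the members lie below the windows of both lists at each of the 6 levels, at 40.5% against 54.3% in the highest.

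Losses were called at members with and without a SALL1 peak. Of the 940 tested members with a SALL1 peak 198 were called losing (21.1%) and 32 gaining (3.40%), and of the 2772 without it 672 (24.2%) and 76 (2.74%). The median log2 change was -0.38 with and -0.50 without a peak. With a SMAD4 peak 88 of 332 tested members were called losing and 3 gaining, with a p300 peak 117 of 530 and 12, and with all 3 peaks 24 of 142 and 2. Over all tested windows 7.56% were losing and 8.68% gaining. The difference between the shares with and without a peak was not tested.

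The members with peaks of all 3 factors and the highest WT H3K27ac lay near Itgae, Dtnbp1, Lhfpl2, Mef2a, Nudt4 and Creb1. Each lay in a region of all 4 PU1 libraries. Each also lay 363 to 496 bp from a window of another list, so its 1 kb window overlapped that one and can share its tags and peaks. Creb1 encodes a cAMP-responsive transcription factor, and its window had 566.14 and 283.65 tags in WT and 405.48 and 136.64 in EKO, a log2 change of -1.03 (SE 0.15) that was called losing, though not on the values as deposited. Mef2a encodes a MEF2 factor of the microglial enhancer program, and its window had 541.92 and 375.21 tags in WT and 963.52 and 307.62 in EKO, with a log2 change of 0.00 (SE 0.11). At Dtnbp1, 580.92 and 370.23 tags stood against 905.31 and 285.22. The Lhfpl2 window, with 561.22 and 386.16 against 789.89 and 216.53 tags, and the Nudt4 window, with 594.06 and 305.54 against 758.77 and 209.81 tags, had log2 changes of -0.44 and -0.38, both under 2-fold. In this group of 6 the WT and EKO ranges overlapped at every window.

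Over all members the nuclei showed no separation by genotype. The share of members in called H3K27ac regions was 9.53% and 31.3% in the WT PU1 libraries and 17.5% and 16.2% in the EKO PU1 libraries, so the WT libraries lay on both sides of the EKO ones (difference 3.52 percentage points, exact permutation p = 1.00, two-sided). The first WT PU1 list was thin, with 11149 regions over 17.4 Mb, against 25990 to 36057 regions in the other PU1 lists. NeuN nuclei gave 16.1% and 15.7% in WT and 19.0% and 15.9% in EKO (exact permutation p = 0.667, two-sided), and Olig2 nuclei 12.8% and 13.2% in WT and 13.7% and 12.7% in EKO (exact permutation p = 1.00, two-sided). In WT the NeuN share exceeded the Olig2 share by 2.90 points with no overlap of the libraries, at the smallest p the design allows (exact permutation p = 0.333, two-sided). The same difference was 4.13 points over all windows and 2.44 points over the windows of both lists, and the WT NeuN lists covered 103 and 105 Mb against 76.7 and 76.2 Mb for Olig2. Over these 4 comparisons no p could pass 0.05 before or after adjustment. Without PU1 WT library 2 the PU1 difference turned to -7.37 points.

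**Figure D5:**
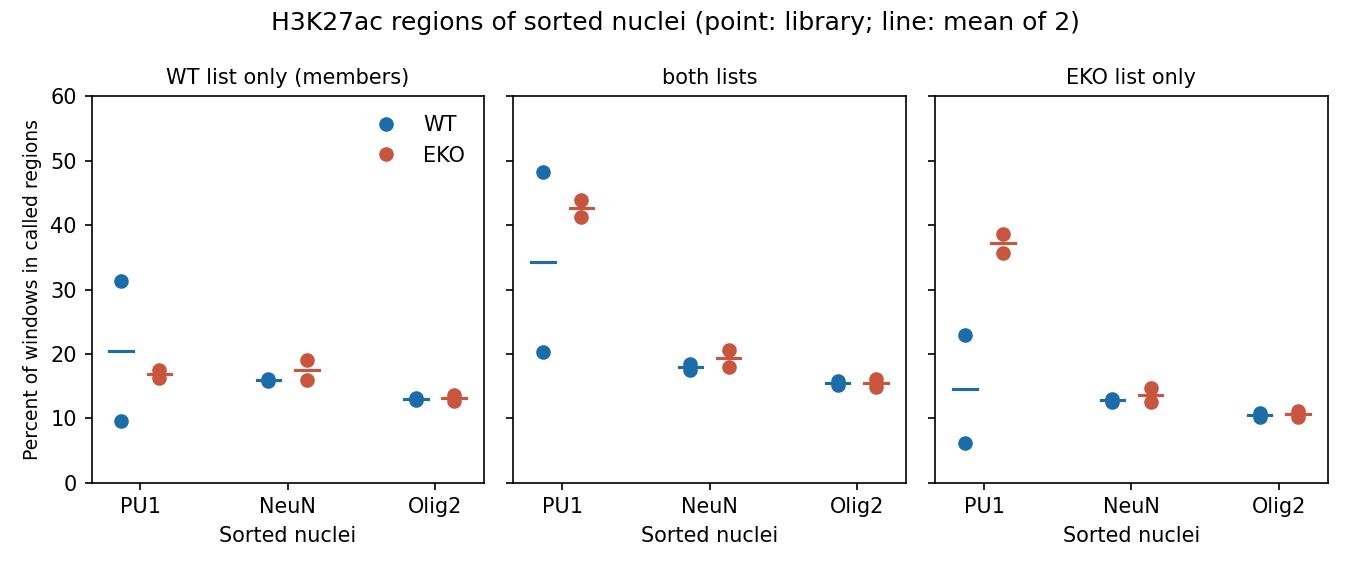
Percent of distal windows that overlap a called H3K27ac region (y axis) in PU1, NeuN and Olig2 nuclei (x axis) for windows of the WT list alone, both lists and the EKO list alone, with 1 point per library and lines at the mean of 2. For members the WT PU1 libraries sit at 9.53% and 31.3%, on both sides of the EKO libraries at 17.5% and 16.2%.

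By pattern, 66.3% of members lay in no region of any PU1 library and 45.1% in none of the 12 nuclei libraries, against 44.2% and 29.5% of the distal windows of both lists. At 285 members (1.22%) a region was called in both PU1 WT libraries and in neither EKO library, against 0.420% of the windows of both lists and 0.0221% of those of the EKO list alone. With PU1 WT library 2 alone required, in place of both, the numbers were 3279 members (14.0%), 8.42% and 2.92%. The opposite, both EKO libraries and neither WT library, held at 172 members (0.734%), 3.77% and 13.9%. Another 2515 members (10.7%) lay in no PU1 region but in both WT libraries of NeuN or Olig2 nuclei. Of the members called losing in microglia, 58.2% and 95.2% lay in regions of PU1 WT libraries 1 and 2, and 52.1% and 46.7% in those of the EKO libraries. For gaining members the shares were 21.3% and 76.9% in WT and 99.1% and 98.1% in EKO, and for tested members without a call 51.3% and 91.1% in WT and 83.7% and 79.2% in EKO.

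Introns held 53.4% of the members and intergenic sequence 40.8%, with a median distance to the TSS of 26895 bp. They were nearest to 8792 named genes, 4252 of which had a single member. After Sall1 the genes with the most members were Frmd4a (38 of its 98 distal windows), Basp1 (35 of 104), Csmd3 (32 of 61), Khdrbs3 (32 of 34), Nav2 (32 of 72), Chd7 (30 of 86) and Zeb2 (30 of 83). Frmd4a encodes a scaffold of cell polarity, Chd7 a chromatin remodeller and Zeb2 a zinc finger repressor that macrophages need to keep their identity. By gene, 2 of 18 tested members were called losing at Frmd4a, 0 of 10 at Basp1 and 3 of 4 at Csmd3. At Nav2 it was 1 of 2, at Chd7 2 of 6 and at Zeb2 1 of 13, and none gained. Over all tested windows 7.56% were losing and 8.68% gaining, and over all tested members 23.4% and 2.91%. At Zeb2 the members summed to 1102 and 785 tags in WT and 1537 and 550 tags in EKO.

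Around the distance limit levels were low. At 3001 bp, the St14 window had 4.52, 13.93, 3.01 and 1.49 tags in WT 1, WT 2, EKO 1 and EKO 2. At 3000 bp, just outside, the Tlr7 window had 7.80, 12.94, 22.08 and 7.47 tags. Of the 4 windows nearest to the limit on each side, WT and EKO values overlapped at 3 inside it and at 3 outside it.

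Genes of microglia identity had 207 members, of which 94 were tested, 32 called losing and none gaining, with a median log2 change of -0.59 (over all tested windows 7.56% were losing and the median was -0.03). Of the 32, 22 were those of Sall1, and without Sall1 10 of 72 were losing with a median of -0.36. Over all tested members 23.4% were losing, with a median of -0.47. Without Sall1 the list thus had a smaller share losing and a smaller median change than the members as a whole. The 10 losing members outside Sall1 lay at P2ry13 (4), a purinergic receptor gene, Adgrg1 (2), an adhesion G protein-coupled receptor, Selplg (2), the P-selectin ligand, Entpd1 (1), the ectonucleotidase CD39, and Gpr34 (1). On the values as deposited 11 members of this list were called, all of them at Sall1.

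Members at other gene lists were fewer or moved less. Members near genes of the TGF-beta pathway numbered 100, of which 28 were tested and 1 was called losing, in intron 5 of Tgfbr2, the type II receptor, with 37.36 and 36.82 tags in WT and 24.09 and 10.45 in EKO. The median log2 change of that list was -0.03. For adhesion, morphogenesis and guidance, 8 of 30 tested members were losing and none gaining (median -0.65), a share near the 23.4% of all tested members, at Rac1 (2), Itga9 (2), Rock2, Cdh23, Tln1 and Itgb5. Rac1 is a GTPase of the actin cytoskeleton. Its leading window, 550 bp from a window of another list, had 112.08 and 91.56 tags in WT and 34.12 and 29.12 in EKO. At the values as deposited none of these was called.

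Over all tested members 23.4% were losing and 2.91% gaining, and over all tested windows 7.56% and 8.68%, so the counts of these short lists are read as descriptions. For disease-associated and lipid genes, 6 of 9 tested members were losing (median -1.45), 5 of them at Cd9, a tetraspanin raised in activated microglia, and 1 at Abcg1, and 1 was gaining at Abca1. The leading Cd9 window had 119.06 and 60.71 tags in WT and 49.18 and 8.21 in EKO. For cytokine and innate activation, 4 of 16 were losing, at Nfkb1 (2), Ccl5 and Il1a, and 3 gaining, at Ccl12, Cxcl16 and Nfkbia (median -0.43). Among macrophage transcription factors 6 of 57 were losing, 5 at Ets1 and 1 at Fosb, and 3 gaining, at Fos, Runx1 and Runx3 (median -0.21). The leading Ets1 window had 48.44 and 38.81 tags in WT and 17.06 and 12.69 in EKO, while the Fos window had 13.14 and 7.96 against 105.39 and 41.81. The leading Cd9, Ets1 and Fos windows lay 368, 707 and 446 bp from a window of another list and can share its tags. Another losing Cd9 window lay 846 bp from its nearest window. On the values as deposited none of the losing members of these 3 lists was called, and of the gaining ones only that of Runx3 was.

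For border macrophages, none of the 7 tested of 33 members was called, 26 of the 33 near Maf, and the interferon list had 1 tested member and no call. Markers of other cells gave few tested members: 0 of 20 for neurons, 3 of 23 for oligodendrocytes, 5 of 27 for astrocytes, 1 of 20 for monocytes, 2 of 9 for lymphocytes and 2 of 29 for endothelium. Among these, 2 windows were called losing, at Slc1a3, the astrocyte glutamate transporter gene, with 47.21 and 29.86 tags in WT and 15.06 and 8.96 in EKO, and at the monocyte gene Plac8, with 47.21 and 42.80 against 13.05 and 1.49.

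In base composition the members resembled the windows of both lists more than those of the EKO list alone, at a mean of 49.99%, 49.7% and 44.9% GC in the central 200 bp. The AT-rich word AATATT occurred in 1.98% of members, 2.65% of windows of both lists and 6.38% of windows of the EKO list alone, against 2.48% of all windows of the table. The C/EBP word occurred in 7.91%, 10.5% and 16.2% (9.37% of all) and the RUNX word in 5.21%, 6.56% and 8.29% (5.55% of all). At a GC content of 40% to 50%, which held 10698 of the members, the order was the same, with AATATT at 2.72%, 3.62% and 5.77%, C/EBP at 9.64%, 12.4% and 17.2% and RUNX at 5.90%, 7.20% and 8.83%. It was also the same at 50% to 60%. Below 40% GC, where 824 members lay, AATATT occurred in 9.22% of members and 8.68% of windows of both lists, the opposite order, and in 12.5% of windows of the EKO list alone. At 60% GC or above it occurred in 0.365%, 0.436% and 0% (0 of 144 windows of the EKO list alone), and C/EBP in 3.93%, 4.24% and 3.47%. The PU.1 word occurred in 11.0%, 11.7% and 9.01% (9.34% of all), and the SMAD word CAGACA in 21.9%, 21.1% and 19.5% (18.9% of all). For IRF the shares were 8.23%, 9.07% and 11.1%, and for AP-1 7.86%, 8.85% and 10.7% (7.98% and 7.64% of all). The CTCF word, added to the set later, occurred in 8.86%, 9.85% and 5.63% (9.83% of all). The MITF/TFE, NR4A, MEF2 and GTCTAGAC words occurred in 1.87%, 0.953%, 0.261% and 0.295% of members. These are shares of letters in a window and were not tested.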

How the data were processed

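H3K27ac ChIP-seq tags were counted by the authors in 1000 bp windows centred on merged open-chromatin peaks, and deposited as a signal of tags scaled to 10000000 tags per library. Reads had been mapped to mm10 with Bowtie2 and handled in HOMER, per the study's methods and the submitters' processing notes. Peak lists of SALL1, SMAD4 and p300 were deposited as 1 list per group with IDR scores per peak, and regions of the nuclei libraries as HOMER calls per library with the fold over input, at a ratio of at least 4 by the authors.

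Every value was a whole multiple of 1 step per library (100% of values within 0.05 tags), which gave the depths and whole tags. The steps of WT library 2 and EKO library 1 lie close to 1 tag. Values were analysed as log2(tags + 1) after quantile normalization, over 55285 windows with a mean above 16 tags in the 4 libraries, with limma 3.58.1 in R 4.3.3 (moderated test with a trend, Benjamini-Hochberg over all tested windows). The study used DESeq2. A window was called at an adjusted p under 0.05 and a fold above 2. DESeq2 1.42.0 and edgeR 4.0.16 were run on whole tags. The fits were also run on simulated counts with the same dispersion at every window. That simulation held no library at a higher level, as EKO library 1 was, and nothing is read from it. Peaks and regions were matched by an overlap of at least 1 bp, and nuclei were compared with exact permutation tests over libraries. Sequence came from RefSeq GRCm38 for 23411 of the 23427 members. The sequence of 1 named window is not reported here.

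Named windows were the 8 members of highest mean WT H3K27ac, the 10 largest called losses with both WT libraries above both EKO libraries and the 5 largest called gains (each 1 per nearest gene), the 6 highest members with SALL1, SMAD4 and p300 peaks, the 8 genes with the most members and, for each gene list, its leading members. The members and lists were chosen with earlier results of these data known. Libraries of the same number did not deviate together (correlation of deviations 0.036 over tested windows and 0.022 over tested members), so they were not treated as pairs. Libraries of a group differed at the members by more than sampling noise (chi-square per degree of freedom 2.79 for WT and 2.64 for EKO). Input libraries were not used.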

Additional observations from a re-analysis of the deposited data

Results flagged for a closer look

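At the 58 members nearest to Sall1, the share in called H3K27ac regions differed between genotypes by 69.0 percentage points (WT minus EKO) in PU1 nuclei and by -2.59 points in Olig2 nuclei, a gap of 71.6 points. Both WT PU1 libraries lay above both EKO PU1 libraries, while the Olig2 libraries of WT lay below those of EKO. Over all windows the same differences were -9.22 points for PU1 and -0.417 points for Olig2. The 58 windows lie along the same locus and can share a region, so they are not independent. The difference between the nuclei was not tested.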

How the results depend on the processing

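Of the members, 870 were called losing and 108 gaining, with a median log2 change of -0.47. On the values as deposited these were 34, 6 and -0.095, and without EKO replicate 1 on those values (chosen after seeing the data) 683, 22 and -0.81. With a mean above 32 tags they were 349, 62 and -0.36, with DESeq2 566, 89 and -0.39, with edgeR 786, 140 and -0.37, and among members with no window centre within 1000 bp 164, 9 and -0.52. The median was -0.39 with libraries scaled to one median, -0.42 with a pseudocount of 4 and -0.30 with no filter. With the replicate block the counts were 916 and 115 and the median -0.47. Leaving out 1 library with limma gave 0 to 441 losing, 0 to 32 gaining and medians from -0.50 to -0.45; 1 residual degree of freedom was left. With edgeR, added after seeing the data, leaving out WT 1, WT 2, EKO 1 or EKO 2 gave medians of -0.41, -0.37, -0.36 and -0.43, with 585 to 786 losing and 98 to 159 gaining.

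Over all members with no filter the median of -0.30 became 0.080 as deposited, -0.19 with a pseudocount of 4 and -0.23 among members with no near window, and -0.35 to -0.23 with 1 library left out. The shares with SALL1, SMAD4 and p300 peaks were 2.09%, 0.418% and 0.901% in the central 200 bp, 3.21%, 0.875% and 1.55% for the upper part of each list by score (above its median), and 2.35%, 0.362% and 1.03% at members with no near window. The WT minus EKO difference in nuclei ranged from -7.37 to 14.4 points for PU1 and from -0.642 to 0.288 for Olig2 with 1 library left out, where it was 0.0256 without WT 1 and 0.288 without EKO 1. With a fold over input of at least 8 it was 0.301 for NeuN and 0.773 for Olig2.

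Of 473 values of 28 named windows under the alternatives, 400 kept direction and call, 59 lost the call and 14 changed sign, all 14 at windows without a call. These were Dleu2 (-0.11 to 0.43 with 1 library left out, -0.053 without WT 2 with edgeR and -0.41 without EKO 1 as deposited), Bicral (-0.035 to 0.13, -0.014 and -0.40 likewise), Tnfaip3 (0.044), Fhad1os1 (0.093) and Dtnbp1 (0.13) as deposited, and Mef2a (0.27 as deposited, -0.020 to 0.018 with 1 library left out, and 0.046 and 0.044 with edgeR without WT 1 or EKO 2). The cause of these changes was not tested. The median member had 14 whole tags in WT library 1 and 5 in WT library 2, and members under the filter were not tested.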
